A study of Mus musculus with 2 samples.

Results

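The genes described here are the teneurins (Tenm1 to Tenm4), the latrophilins (Adgrl1 to Adgrl3) and the fibronectin leucine-rich transmembrane (FLRT) proteins (Flrt1 to Flrt3). They were taken by symbol, and all 10 were present among the 31055 rows of the deposited tables, which hold 31053 Ensembl genes and 2 reporter sequences. They were measured by single-nucleus RNA sequencing (snRNA-seq) in olfactory bulb (OB) nuclei of adult wild-type (WT) mice that had received a retrogradely transported virus carrying a nuclear green fluorescent protein under the CAG promoter (retroAAV-CAG-H2B-GFP). In the AON library the virus went into the anterior olfactory nucleus, and in the pPCx library into the posterior piriform cortex, and fluorescent nuclei were sorted. The virus enters at axon endings but CAG is active in most cells, so a sorted nucleus need not be a projection neuron (PN). Each group is 1 library, so no difference below was tested between injection sites, and nuclei of a library are not replicates of it. The pPCx library came from a single female mouse, per the study methods, while the sources used here do not say how many animals went into the AON library, and the labels give no sex and no age beyond adult.

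Teneurins are large transmembrane proteins that bind latrophilins, adhesion G protein-coupled receptors, across the synaptic cleft, and they also bind teneurins of the same kind on neighbouring cells. FLRT proteins bind latrophilins as well, and they bind the Unc5 netrin receptors, which can make an axon turn away. Latrophilins can hold a teneurin and an FLRT protein together, and in other brain circuits these partners are known for matching axons to their targets and for placing synapses on particular parts of a dendrite. In the OB the relevant contacts are those between PNs, the mitral and tufted cells, and the GABAergic interneurons that form reciprocal synapses with their dendrites.

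The AON library held 188 barcodes with 2963064 unique molecular identifiers (UMIs, the counted RNA molecules), and the pPCx library held 74 barcodes with 2412067 UMIs. A minimum of 1000 genes left 102 AON nuclei with a median of 22267 UMIs and 63 pPCx nuclei with a median of 31581 UMIs, and the libraries shared 0 barcodes. A nucleus was called a PN when its UMIs of Slc17a7, Slc17a6, Tbx21 and Cdhr1 exceeded those of Gad1, Gad2 and Slc32a1, and GABAergic in the reverse case with 3 or more UMIs of the latter. By this rule 25 of 102 AON nuclei (24.5%, exact Clopper-Pearson 95% interval 16.5 to 34.0%) and 59 of 63 pPCx nuclei (93.7%) were PNs. There were 47 GABAergic nuclei among those from AON and 2 among those from pPCx, so classes were compared within the AON library. Of the 30 remaining AON nuclei, 18 had more UMIs of 6 astrocyte markers than of 5 oligodendrocyte markers, 9 had the reverse, and 3 had none of either. As a check outside the rule, the olfactory sensory neuron markers Omp and Gng13 had 0 and 9 UMIs in AON PNs and 0 and 4 UMIs in pPCx PNs.

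The AON PNs were not of 1 quality. Of the 25, 14 had 5 or more UMIs of the 4 PN markers and a median of 56522 UMIs in all, whereas 11 had 1 to 4 and a median of 6480. The astrocyte markers summed to 1427 UMIs per 1000000 UMIs of the same nuclei (CPM) in the latter 11 and to 97.8 CPM in the 14. The 3 neuronal markers Syt1, Snap25 and Rbfox3 summed to 1946 CPM in the 11 and 6549 CPM in the 14. Values for the 14 are therefore given beside the results for Tenm2 and Tenm3, and the part of other cells' RNA in the 11 was not tested.

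Among the teneurins, Tenm1 was higher in PNs, Tenm4 was similar in both neuronal classes, and Tenm2 and Tenm3 were higher in GABAergic nuclei. Most pPCx PNs nonetheless had a UMI of Tenm2 (42 of 59) and of Tenm3 (35 of 59). Tenm4 (GRCm38 chr7:96171246-96911093) had 1379 UMIs in AON PNs, 1234 CPM (exact Poisson interval 1170 to 1301), and 1812 UMIs in pPCx PNs, 778 CPM (743 to 815). Single pPCx PNs ran from 117 over a median of 714 to 2018 CPM. Its level in AON GABAergic nuclei was 1115 CPM (1058 to 1175) and in the remaining AON nuclei 144 CPM (112 to 182), of which 59.4% of the UMIs lay in a single nucleus. Tenm4 was thus a neuronal transcript at a similar level in both neuronal classes: every one of the 59 pPCx PNs, all of the 14 AON PNs with more marker UMIs and all 47 GABAergic nuclei had a UMI.

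Tenm1 (chrX:42527866-43429126) was the only teneurin higher in PNs than in GABAergic nuclei by the 2-fold limit used here. It stood at 483 CPM (443 to 526) in AON PNs and 655 CPM (623 to 689) in pPCx PNs, against 168 CPM (146 to 192) in GABAergic nuclei. In single nuclei its CPM ran from 0 over a median of 203 to 5347 in AON PNs, from 0 over 582 to 2924 in pPCx PNs, and from 0 over 109 to 996 in GABAergic nuclei. The ranges overlapped, and the medians kept the order of the sums. A single AON PN, the deepest, held 36.3% of the Tenm1 UMIs of its class. Tenm1 is X-linked, and the libraries differed in sex-linked genes: Xist had 0 UMIs in AON PNs and 1744 in pPCx PNs, and Eif2s3y had 139 and 0.

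Tenm3 (chr8:48227682-48843951) was the member with the highest level in GABAergic nuclei, with 5383 UMIs in 47 nuclei, 4235 CPM (4122 to 4349). Single GABAergic nuclei ranged from 0 to 13472 CPM with a median of 3112, and 42 of 47 had a UMI. AON PNs had 102 UMIs, 91.3 CPM (74.4 to 111), and pPCx PNs 279 UMIs, 120 CPM (106 to 135). Of the AON PN UMIs, 51.0% lay in the deepest nucleus. The 14 AON PNs with more marker UMIs stood at 68.4 CPM (53.3 to 86.5) and the other 11 at 338 CPM (231 to 478). The highest pPCx PN reached 602 CPM and the highest AON PN 1283 CPM, both under the median of the GABAergic nuclei. Tenm3 was also present in the AON nuclei led by astrocyte markers, where 17 of 18 nuclei had a UMI and the level was 985 CPM (870 to 1110), while in the 9 nuclei led by oligodendrocyte markers 93.9% of 33 UMIs came from a single nucleus.

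Tenm2 (chr11:36006656-37235964) was likewise high in GABAergic nuclei, at 1969 UMIs and 1549 CPM (1481 to 1619), with a median nucleus at 808 CPM. It had 41 UMIs, 36.7 CPM (26.3 to 49.8), in AON PNs and 691 UMIs, 297 CPM (275 to 320), in pPCx PNs. Of the 41 UMIs in AON PNs, 61.0% lay in a single nucleus with few PN markers, and the 14 nuclei with more marker UMIs had 14 UMIs, 13.7 CPM (7.48 to 23.0). In the pPCx library, in contrast, 42 of 59 nuclei had a UMI and the median nucleus stood at 209 CPM.

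**Figure D1:**
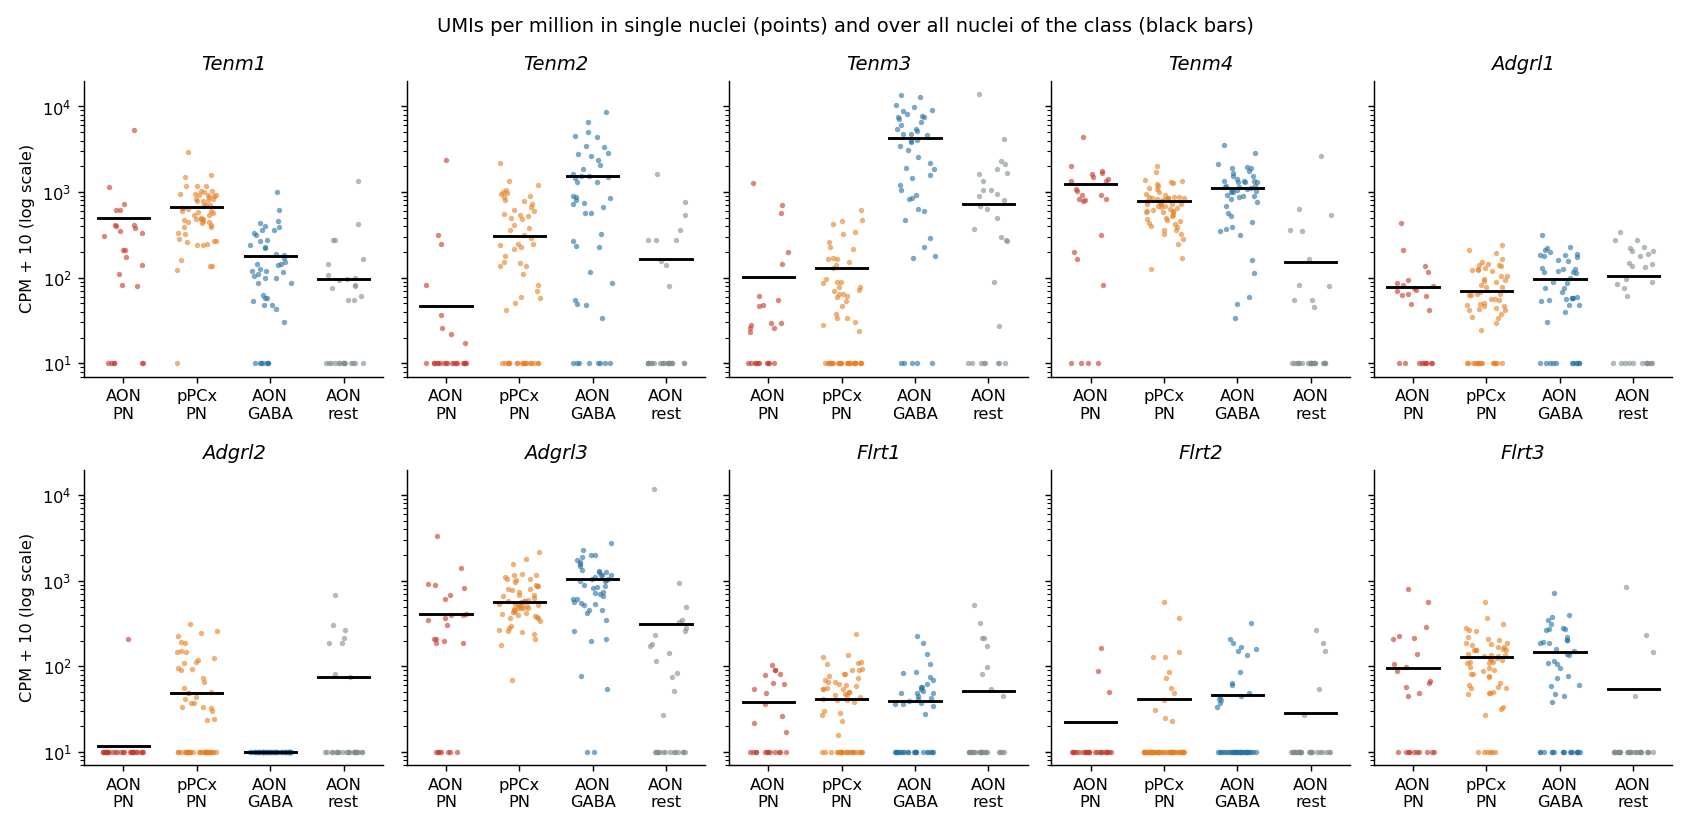
Each point is a nucleus and the vertical axis is its CPM with 10 added, on a log scale. AON PN and pPCx PN are projection neurons, AON GABA GABAergic nuclei and AON rest the remaining AON nuclei, and black bars give the level over all nuclei of the class. Tenm2 and Tenm3 are highest in GABAergic nuclei (1549 and 4235 CPM), and Adgrl2 is at 0 in all 47 of them.

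Each latrophilin had its own distribution. Adgrl3 (chr5:81020138-81825133) was carried by most nuclei of both neuronal classes, with 441 UMIs, 395 CPM (359 to 433), in AON PNs, 1286 UMIs, 552 CPM (523 to 583), in pPCx PNs and 1322 UMIs, 1040 CPM (985 to 1098), in GABAergic nuclei. A UMI was found in 59 of 59 pPCx PNs, with a median nucleus at 519 CPM, and in 45 of 47 GABAergic nuclei, with a median of 852 CPM. In the remaining AON nuclei its 304 CPM was carried to 60.3% by a single nucleus. Adgrl1 (chr8:83900105-83941954) was found in all main classes, at 68.0 CPM (53.6 to 85.1) in AON PNs, 60.6 CPM (51.0 to 71.4) in pPCx PNs, 85.7 CPM (70.4 to 103) in GABAergic nuclei and 93.8 CPM (68.4 to 126) in the remaining nuclei, and these intervals overlapped. The ratio of pPCx PNs to AON GABAergic nuclei was nonetheless below 1 (1.42-fold lower, 1.09 to 1.83), and within the remaining nuclei the level was 125 CPM in those led by astrocyte markers and 43.4 CPM in those led by oligodendrocyte markers.

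Adgrl2 (chr3:148815583-148990555) was the member absent from the counts of GABAergic nuclei. It had 90 UMIs in 32 of 59 pPCx PNs, 38.7 CPM (31.1 to 47.5), 2 UMIs in a single nucleus among the 25 AON PNs, and 0 UMIs in the 47 GABAergic nuclei. Against a floor of 3 UMIs in the GABAergic nuclei, 2.36 CPM, the level in pPCx PNs, of the other library, was 16.4-fold higher. The Poisson upper limit for the GABAergic nuclei was 2.90 CPM, above this floor, and the 2 GABAergic nuclei of the pPCx library also had 0. The share of nuclei with a UMI was 54.2% in pPCx PNs (15.3% with each nucleus thinned to 3000 UMIs, interval 7.22 to 27.0%) and 0 in GABAergic nuclei (thinned upper bound 7.55%), at median depths of 34306 and 26129 UMIs. In the AON library Adgrl2 was instead found in the nuclei led by astrocyte markers, with 31 UMIs in 8 of 18 nuclei, 114 CPM (77.4 to 162), and with 0 in the 9 nuclei led by oligodendrocyte markers. The 2 Adgrl2 UMIs of AON PNs lay in a nucleus with under 5 PN marker UMIs, and the 14 nuclei with more had 0.

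The FLRT genes, which code for ligands of both latrophilins and Unc5 receptors, differed in how many nuclei carried them. Flrt3 (chr2:140650914-140671469) was found in the most nuclei, at 85.9 CPM (69.6 to 105) in AON PNs, 119 CPM (105 to 133) in pPCx PNs and 138 CPM (118 to 160) in GABAergic nuclei, and 53 of 59 pPCx PNs had a UMI. In the remaining AON nuclei it had 21 UMIs in 4 of 30 nuclei. Flrt3 was thus found in neurons of both classes and in few other nuclei. Flrt1 (chr19:7092001-7105729) had overlapping intervals in AON PNs (28.6 CPM, 19.6 to 40.4), in pPCx PNs (31.4 CPM, 24.6 to 39.4) and in GABAergic nuclei (29.9 CPM, 21.2 to 41.0). Flrt2 (chr12:95692226-95785215) was sparse, with 14 UMIs in 3 of 25 AON PNs, 74 UMIs in 13 of 59 pPCx PNs and 46 UMIs in 17 of 47 GABAergic nuclei, and 41.9% of its pPCx PN UMIs came from a single nucleus. Flrt1 and Flrt3 lie within the spans of Macrod1 and Macrod2 on the other strand, so reads shared with these host genes depend on how strand was counted.

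Levels of different members were compared per kb of merged exons. A UMI counts an RNA molecule whatever its length, so an order per kb is no ranking of molecule numbers. On that scale Tenm4 was first and Tenm1 second in both sets of PNs, at 58.7 and 27.2 CPM per kb in AON PNs and at 37.0 and 36.9 CPM per kb in pPCx PNs, where their Poisson intervals overlapped. Adgrl3 followed at 22.2 and 31.1 CPM per kb, and Adgrl2 was last in both sets at 0.126 and 2.72 CPM per kb. In GABAergic nuclei Tenm3 led with 414 CPM per kb, ahead of Tenm2 with 135 and Adgrl3 with 58.6. The order depends on the length used, and nuclear RNA also holds introns. Per kb of the whole gene span, Flrt3, a short gene, came first in AON PNs (4.18 CPM per kb) and pPCx PNs (5.77), and Tenm3 stayed first in GABAergic nuclei (6.87). By CPM alone, Tenm4, Tenm1 and Adgrl3 also led in both sets of PNs, and Tenm3 in GABAergic nuclei. Flrt1 and Flrt2, at 31.4 and 31.8 CPM, then lay below Adgrl2, at 38.7 CPM, in pPCx PNs.

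To ask which of these molecules separate the principal cells of the OB from its interneurons, AON PNs were set against AON GABAergic nuclei. Of 9 members compared, those with 20 or more UMIs over both classes, 1 was higher in PNs by 2-fold or more and 4 were higher in GABAergic nuclei, against 15.2% and 16.1% of all 9808 genes compared. The median log2 ratio of PNs over GABAergic nuclei was -0.68 for these members and -0.061 for all genes compared. Tenm1 was 2.88-fold higher in PNs (interval from counting error alone 2.46 to 3.40), and it was the member in the PN direction. Tenm3 was 46.4-fold lower in PNs (38.1 to 57.0) and Tenm2 42.2-fold lower (31.0 to 59.0), a size that for Tenm2 ran from a log2 ratio of -3.59 with nuclei at equal weight to -6.77 for the 14 PNs with more marker UMIs. Tenm3 had a log2 ratio of -5.53, or -5.94 for those 14. Adgrl3 was 2.64-fold lower (2.36 to 2.94), just under 2-fold with nuclei at equal weight (log2 ratio -0.99). Flrt2 was 2.89-fold lower (1.56 to 5.69), with a log2 ratio of -1.50 that became -0.23 when nuclei were thinned to 3000 UMIs. Thinning left a Flrt2 UMI in only 2 of 25 PNs and 5 of 47 GABAergic nuclei. The other 4, Tenm4, Adgrl1, Flrt1 and Flrt3, differed by less than 2-fold, with log2 ratios from -0.68 to 0.15. Adgrl2, with 2 and 0 UMIs, could not be compared. The 3 GABAergic markers, whose level in PNs the class rule itself limits, summed to 23.3 CPM in AON PNs and 863 CPM in GABAergic nuclei, and the part of GABAergic RNA in the PN levels of Tenm2 and Tenm3 was not tested. For pPCx PNs over the same AON GABAergic nuclei, and so across libraries, Tenm1 was 3.91-fold higher, Tenm2 5.22-fold lower, Tenm3 35.3-fold lower and Adgrl3 1.88-fold lower.

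Of 16 partner genes of these molecules, 3 were higher in PNs and 5 in GABAergic nuclei by 2-fold or more, against the same 15.2% and 16.1% of all genes compared. The 3 were Unc5 receptors, which FLRT proteins bind. Unc5c had 594 CPM in AON PNs and 45.6 CPM in GABAergic nuclei, a log2 ratio of 3.69, and it was at 3242 CPM in the 9 nuclei led by oligodendrocyte markers. Unc5d had 1112 and 93.6 CPM, 11.9-fold higher (9.84 to 14.5), with 52.6% of the PN UMIs in the deepest nucleus, and Unc5b 17 and 3 UMIs, a ratio of 6.45 (1.86 to 34.3). Higher in GABAergic nuclei were Nrxn3, a presynaptic neurexin (18023 against 3419 CPM, with 52.3% of the PN UMIs in the deepest nucleus), the postsynaptic scaffold gene Shank2 (278 against 26.0 CPM), the receptor tyrosine kinase gene Fgfr1 (59.0 against 26.8 CPM), the contactin gene Cntn6 (70.8 against 10.7 CPM) and Unc5a (19 against 2 UMIs).

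Ligands and receptors were set side by side between the classes. Opposite Tenm2 and Tenm3, the teneurins with the higher GABAergic level, PNs of both libraries carried Adgrl3 (395 and 552 CPM) and Adgrl1 (68.0 and 60.6 CPM), and pPCx PNs also Adgrl2 (38.7 CPM). Opposite Tenm1 and Tenm4 of PNs, GABAergic nuclei carried Adgrl3 at 1040 CPM and Adgrl1 at 85.7 CPM, with no Adgrl2 UMI. For FLRT and Unc5, Flrt3 was present in both classes while Unc5c and Unc5d were at 594 and 1112 CPM in AON PNs and 601 and 646 CPM in pPCx PNs. Ligand and receptor were also found together in single nuclei: Tenm4 with Adgrl3 in 59 of 59 pPCx PNs, Tenm3 with Adgrl3 in 40 of 47 GABAergic nuclei, and Flrt3 with Unc5c in 53 of 59 pPCx PNs. Tenm4 and Adgrl3 were each in all 59, Tenm3 in 42 and Adgrl3 in 45 of the 47, and Flrt3 in 53 and Unc5c in 58 of the 59. These single counts fix or nearly fix the joint counts, which therefore show no pairing. These are transcript levels in nuclei, and neither protein nor contact was measured.

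To compare the neurons labelled from the 2 injection sites, the 25 AON PNs were set against the 59 pPCx PNs. Injection site cannot be told apart here from library or from sex, as the sex-linked genes given with Tenm1 differed between the libraries. Of 10 members, 0 were higher in AON PNs by 2-fold or more and 3 were higher in pPCx PNs, against 6.66% and 9.82% of all 11172 genes compared. The median log2 ratio of AON over pPCx was -0.45 for the members and -0.059 for all genes compared. The 3 were Tenm2, 8.09-fold lower in AON PNs (5.90 to 11.4), Adgrl2, with 2 against 90 UMIs and a ratio of 21.6 (5.81 to 181), and Flrt2, 2.54-fold lower (1.42 to 4.86). Only the Tenm2 call remained with nuclei thinned to 3000 UMIs. Adgrl2 then had a UMI in 9 of 59 pPCx PNs and 1 of 25 AON PNs, and Flrt2 in 4 and 2. The minimum of 20 UMIs also held after thinning, so the thinned data cannot decide for genes this sparse. Without the pPCx nucleus that held 31 of the 74 Flrt2 UMIs the log2 ratio of Flrt2 changed from -1.30 to -0.56. The size for Tenm2 depended on few nuclei, with a log2 ratio of -3.00 that became -1.56 with nuclei at equal weight and -4.39 for the 14 AON PNs with more marker UMIs. Tenm4 was 1.59-fold higher in AON PNs (1.48 to 1.70). The other 6 had log2 ratios between -0.48 and 0.17, and for Tenm3 the direction was not stable: its log2 ratio of -0.39 became 0.54 when every nucleus had equal weight and 1.24 when nuclei were thinned to 3000 UMIs. Tenm3 stood at 68.4 CPM in the 14 AON PNs with more marker UMIs, 338 CPM in the other 11 and 120 CPM in pPCx PNs. Of the 16 partners, Cntn6 (12 against 3948 UMIs) and Unc5a (2 against 27 UMIs) were past 2-fold, both higher in pPCx PNs.

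**Figure D2:**
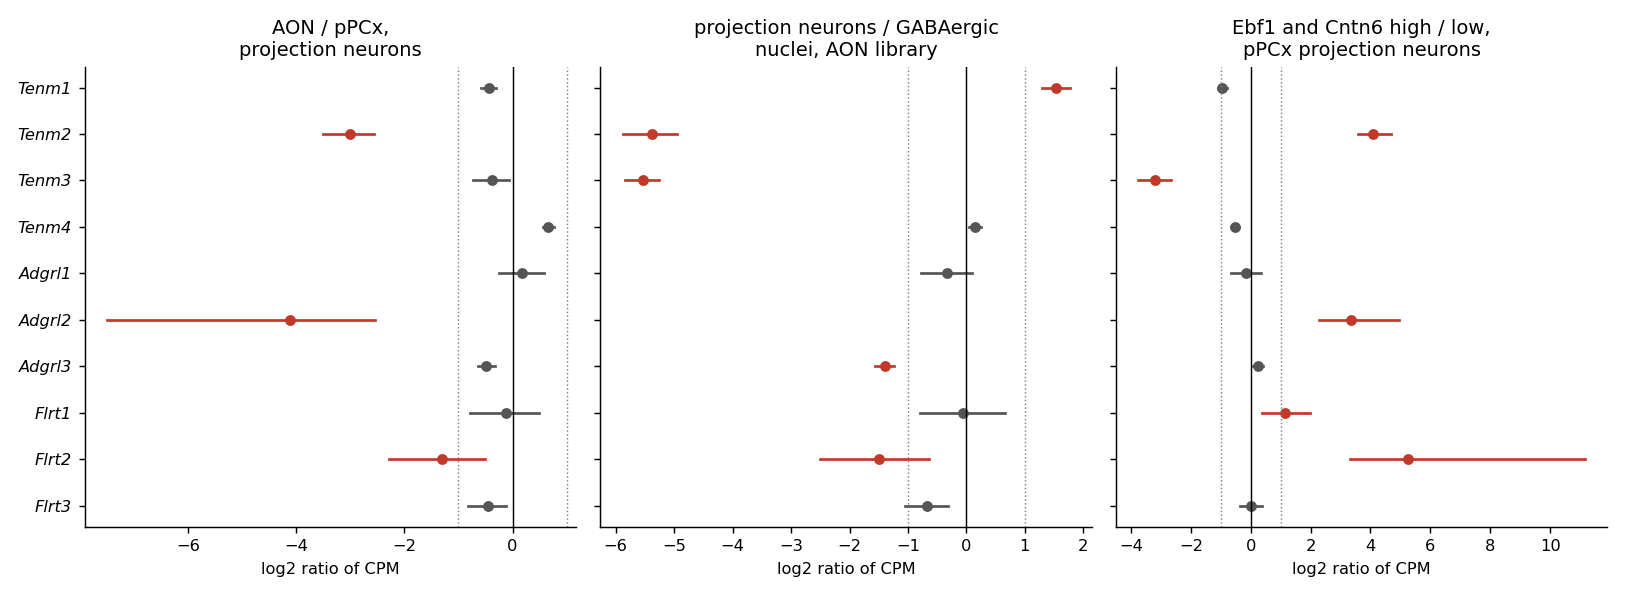
The horizontal axis of each panel is a log2 ratio of CPM, points are the ratios and lines their 95% counting intervals, with dotted lines at 2-fold and members past it in red. Between AON and pPCx projection neurons 3 members lie past the limit, Tenm2, Adgrl2 and Flrt2, and these 3 lie on the right in the comparison of pPCx nuclei high and low in Ebf1 and Cntn6. Adgrl2 has no point in the comparison of classes, where it had 2 and 0 UMIs.

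The pPCx PNs were themselves of separate kinds. Ebf1, a transcription factor gene, and Cntn6 together divided them into 37 nuclei at 1433 CPM or more and 22 nuclei whose highest value was 100.4 CPM, so that limits of 500 and 1000 CPM gave the same groups. AON PNs had Cntn6 at 10.7 CPM, against 15.6 CPM in the 22 low nuclei and 3016 CPM in the 37 high nuclei. By the sum of Ebf1 and Cntn6, however, 4 of the 25 AON PNs lay above the highest low pPCx nucleus, at 1096, 608, 491 and 106.6 CPM. Those at 1096 and 608 CPM had Flrt2 at 78.3 and 152 CPM but no UMI of Tenm2 or Adgrl2. The nucleus at 491 CPM had no UMI of Tenm2, Adgrl2 or Flrt2, and that at 106.6 CPM had Tenm2 alone of these, at 240 CPM. Flrt2 was also found, at 39.7 CPM, in an AON PN with the sum at 19.9 CPM. The split used no member. Ebf1, Cntn6 and Adgrl2, however, all belong to the same marker list, which the study made from other libraries for a mitral cell type. The split and the place of Adgrl2 in it are therefore not independent of the study's own cell types. By classifiers of transcription factor target activity, the study assigned most PNs of this pPCx library to a different mitral cell type. How that assignment relates to the split was not tested.

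Tenm2 and Tenm3 differed between these groups in opposite directions. Tenm2 had 661 UMIs in the 37 high nuclei, 507 CPM (469 to 547), and 30 UMIs in the 22 low nuclei, 29.3 CPM (19.8 to 41.8), a 17.3-fold difference (12.0 to 25.9). In single nuclei it ran from 0 over a median of 481 to 2168 CPM among high nuclei, and 35 of 37 had a UMI, while the median low nucleus was at 0 and the highest at 994 CPM. Tenm3 was the reverse, with 34 UMIs in the high nuclei, 26.1 CPM (18.1 to 36.4), and 245 UMIs in the low nuclei, 239 CPM (210 to 271), 9.17-fold lower in the high nuclei (6.39 to 13.5). Its median was 0 CPM in the high nuclei and 154 CPM in the low nuclei, and the highest high nucleus reached 87.4 CPM against 602 CPM for the highest low nucleus. The ranges of both genes overlapped, with a Tenm2 UMI in 7 of 22 low nuclei and a Tenm3 UMI in 17 of 37 high nuclei.

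Adgrl2 followed Tenm2. It had 84 UMIs in 29 of 37 high nuclei, 64.4 CPM (51.4 to 79.8), and 6 UMIs in 3 of 22 low nuclei, 5.85 CPM (2.15 to 12.7), 11.0-fold higher in the high nuclei (4.85 to 30.8). Flrt2 had 73 UMIs in 12 of 37 high nuclei and 1 UMI in the low nuclei, a ratio of 57.4 (9.98 to 2297), and 42.5% of the 73 UMIs came from a single nucleus. Without that nucleus the log2 ratio of Flrt2, with 0.5 UMI added to each sum, changed from 5.27 to 4.54. Flrt1 was 2.23-fold higher in the high nuclei (1.30 to 3.99), close to the limit. In all, 4 members were higher in the high nuclei and 1 in the low nuclei by 2-fold or more, against 10.2% and 5.58% of 9686 genes compared, and the median log2 ratio was 0.12 for the members and 0.11 for all genes compared.

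Tenm2, Adgrl2 and Flrt2 were high, and Tenm3 low, in the nuclei high in the sum of Ebf1 and Cntn6. The bases before the RefSeq start sites of these 4 members are shown. A search for the core letters bound by EBF factors is given with them, and a role of Ebf1 in these levels was not tested. RefSeq promoter windows on GRCm38.p6 were found for 9 of the 10 members, in 12 windows, and the 250 bases before each start were searched on both strands for CCCNNGGG, which reads the same on both, and for the T-box letters AGGTGTGA. None of the 12 windows held either, while 11.8% and 1.12% of all 32851 RefSeq windows did. This says only that these letters are not in these windows, some of which annotated exons cover in part or in whole. Whether these starts are used in these nuclei was not tested. The GENCODE spans of Tenm2, Tenm3 and Adgrl2, all on the minus strand, start upstream of their windows. The bases before those annotated 5′ ends (Tenm2 at 37235964, Tenm3 at 48843951 and Adgrl2 at 148990555) were not searched. Stretches covered by an annotated exon are left out, and the 4 stretches are printed 5′ to 3′ on the strand of the gene in lower case with no capitals, as no letters matched. Tenm2 is chr11:36944242-36944491 (minus strand), within an intron of the longer Tenm2 transcripts, and Adgrl2 is chr3:148954788-148954885 (minus), likewise inside its gene and ending 153 bases before the start. Tenm3 is chr8:48674723-48674940 (minus), inside its gene and ending 33 bases before the start, and Flrt2 is chr12:95691976-95692225 (plus), directly before it.
Tenm2: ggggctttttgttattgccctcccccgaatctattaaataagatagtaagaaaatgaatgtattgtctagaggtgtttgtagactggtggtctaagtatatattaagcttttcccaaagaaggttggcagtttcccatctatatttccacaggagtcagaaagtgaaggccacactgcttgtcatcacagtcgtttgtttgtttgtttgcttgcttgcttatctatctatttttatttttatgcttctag
Adgrl2: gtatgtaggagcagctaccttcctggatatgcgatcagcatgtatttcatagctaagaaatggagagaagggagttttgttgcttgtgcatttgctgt
Flrt2: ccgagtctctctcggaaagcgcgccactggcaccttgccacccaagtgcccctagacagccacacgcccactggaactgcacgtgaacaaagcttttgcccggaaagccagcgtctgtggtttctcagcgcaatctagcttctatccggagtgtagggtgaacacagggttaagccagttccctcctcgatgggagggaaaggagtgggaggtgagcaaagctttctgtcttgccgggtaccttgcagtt
Tenm3: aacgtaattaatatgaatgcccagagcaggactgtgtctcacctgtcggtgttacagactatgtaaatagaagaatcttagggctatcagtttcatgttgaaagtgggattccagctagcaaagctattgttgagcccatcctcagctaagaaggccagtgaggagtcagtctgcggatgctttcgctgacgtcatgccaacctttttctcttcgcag

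The remaining members crossed the split more evenly. Tenm1 was 1.94-fold lower in the high nuclei (1.75 to 2.15), at 464 against 899 CPM, and Tenm4 was 1.44-fold lower (1.31 to 1.58), at 652 against 939 CPM. Adgrl3 had 591 and 503 CPM, Adgrl1 57.5 and 64.4 CPM, and Flrt3 119 and 118 CPM in the high and low nuclei. All 4 teneurins thus had a lower level in the high nuclei except Tenm2. The high nuclei had a median of 31440 UMIs and the low nuclei 41131.5, and the astrocyte markers summed to 295 CPM in the former and 90.7 CPM in the latter. The part of depth or of astrocyte RNA in these differences was not tested.

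**Figure D3:**
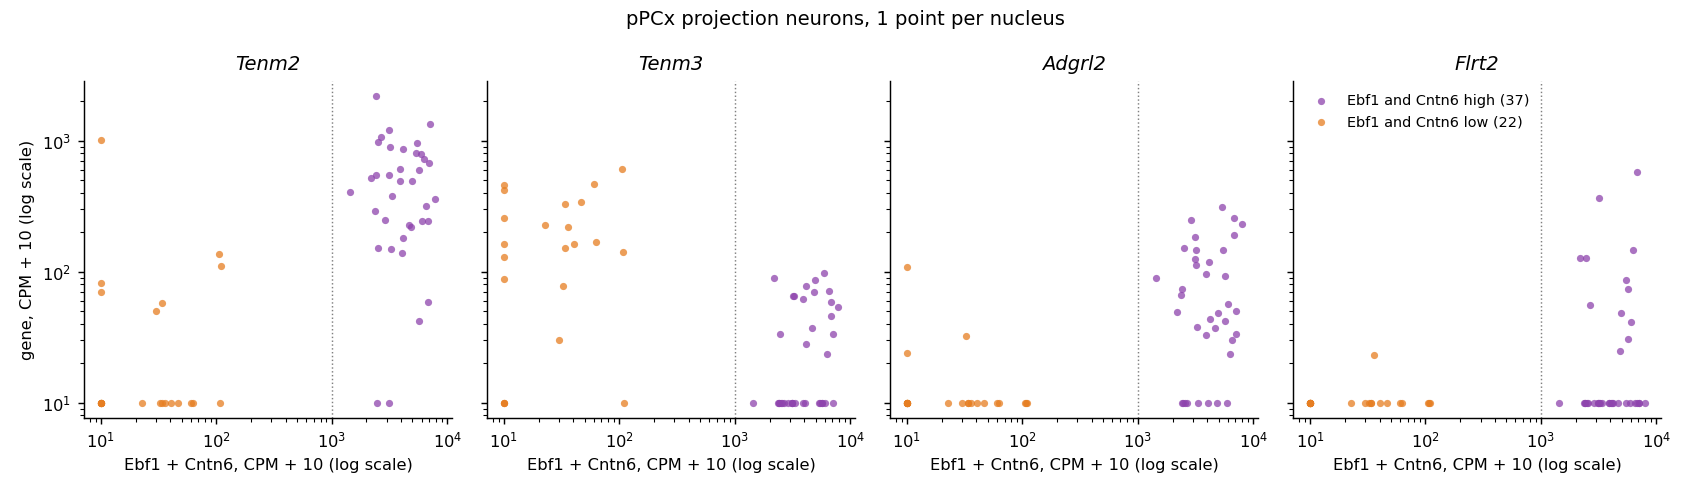
Each point is a pPCx projection neuron, with the summed CPM of Ebf1 and Cntn6 on the horizontal axis and the CPM of the named gene on the vertical axis, both with 10 added and on log scales. The dotted line marks 1000 CPM. Tenm2, Adgrl2 and Flrt2 are found mainly in the 37 nuclei on the right, and the highest values of Tenm3 in the 22 nuclei on the left.

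The difference in Tenm2 between the libraries became smaller when AON PNs were compared with the 22 low pPCx nuclei alone, a comparison chosen after the data had been seen. Tenm2 then stood at 36.7 against 29.3 CPM (ratio of AON over pPCx 1.25, 0.764 to 2.08), while Adgrl2 (2 against 6 UMIs) and Flrt2 (14 against 1) had fewer than the 20 UMIs needed for a comparison. Tenm3 was 2.62-fold lower in AON PNs (2.07 to 3.33), Tenm1 1.86-fold lower (1.67 to 2.07), and Tenm4 1.31-fold higher (1.21 to 1.43). With the 14 AON PNs with more marker UMIs in place of the 25, Tenm2 was again lower in AON PNs, with 14 against 30 UMIs and a 2.14-fold difference (1.10 to 4.37). Tenm3 was then 3.49-fold lower (2.67 to 4.62), and 74.3% of its UMIs in those 14 came from the deepest nucleus.

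Members were also compared nucleus by nucleus. Over the 59 pPCx PNs, which share a library and differ in depth, the Pearson correlation of log2(counts per 10000 + 1) was -0.57 for Tenm2 with Tenm3, 0.33 for Tenm2 with Adgrl2 and -0.35 for Tenm3 with Adgrl2. Within the 37 high nuclei the first of these was -0.10 and the second -0.05, and within the 22 low nuclei -0.37 and -0.15, so that both lay nearer 0 within either group than over all 59 nuclei. Tenm1 with Adgrl3 gave 0.40 over all 59, 0.58 within the high nuclei and 0.29 within the low nuclei. Tenm3 with Tenm4 (0.43, 0.23 and 0.31) and Tenm1 with Tenm4 (0.37, 0.18 and 0.24) also kept their sign. Over the 47 GABAergic nuclei the correlation of Tenm2 with Tenm3 was 0.25. The highest values there were Tenm2 with Flrt3 (0.48), Tenm3 with Tenm4 (0.46) and Tenm2 with Adgrl3 (0.45). The GABAergic nuclei differed in depth as well, from 5679 to 56877 UMIs, and the part of depth in these correlations was not tested.

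The pPCx PNs were also divided by their receptor, which is not independent of the split, since 29 of the 32 nuclei with an Adgrl2 UMI were high in Ebf1 and Cntn6. The 32 pPCx PNs with an Adgrl2 UMI had Tenm2 at 464 CPM and Tenm3 at 60.5 CPM, and the 27 without had 127 and 180 CPM, at median depths of 36261 and 31581 UMIs. Flrt2 stood at 56.3 and 6.92 CPM, Flrt1 at 45.2 and 17.3 CPM, and Tenm1 at 505 and 808 CPM in the same groups. Tenm2 and Adgrl2 were found together in 28 of 59 nuclei and Tenm3 and Adgrl2 in 17.

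**Figure D4:**
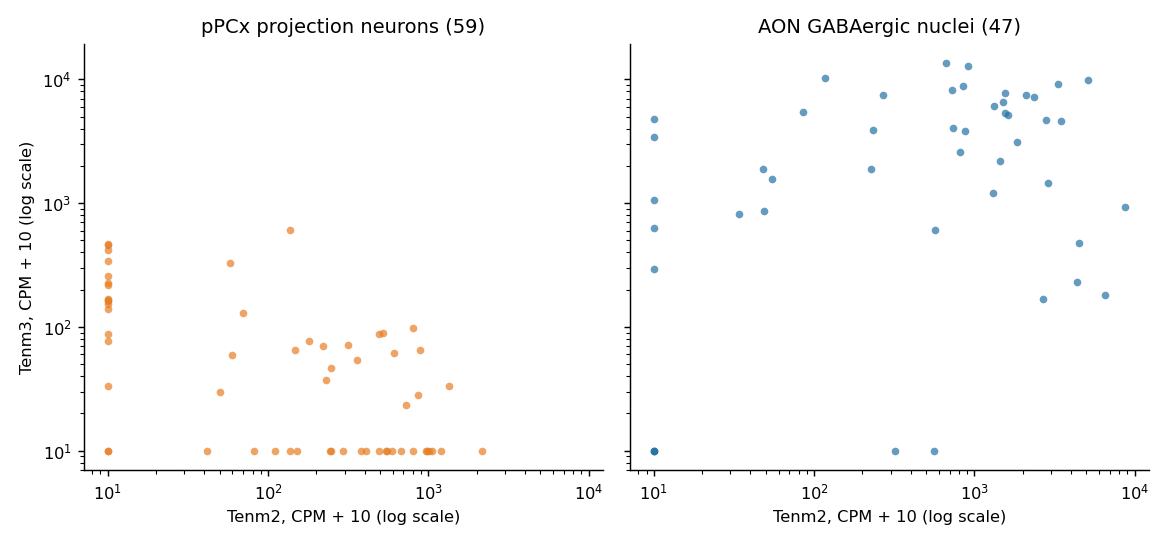
Each point is a nucleus, with Tenm2 on the horizontal and Tenm3 on the vertical axis as CPM with 10 added, on log scales. In the 59 pPCx projection neurons on the left, high Tenm2 goes with low Tenm3 (Pearson correlation -0.57), whereas in the 47 AON GABAergic nuclei on the right most carry both (0.25).

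Among the 3592 genes with 100 or more UMIs in pPCx PNs, those whose levels were most like each member's over the 59 nuclei were ranked for the 7 members that reached this number. For Tenm2 they were Gabra2, a GABA-A receptor subunit gene (r = 0.74), Meg3, a long non-coding RNA (0.73), and Dip2b (0.72). Gabra2 is on the same marker list of the study as Ebf1, Cntn6 and Adgrl2. Tenm3 was like Gm32647 (0.79) and Gria1, an AMPA receptor subunit gene (0.67), and it also followed the log2 depth of the nucleus (0.44). For Tenm1 the first was the synaptotagmin gene Syt1 (0.63), before Mgat4c and Nkain2 (both 0.58). The leading genes were Kcnj3 (0.54), Adcy2 (0.53) and Ccser1 (0.51) for Tenm4, and Adgrl3 was like Cadps2 (0.64) and Tnrc18 (0.57). Cadps2 is also a marker of the study, on a different list, for a mitral cell type other than that of Gabra2. Lower values were reached for Adgrl1, with Wwox (0.46), Cnot10 (0.45) and Wdr59 (0.43), and for Flrt3, with Gm26694 (0.49), Kantr (0.45) and Cltb (0.44). With 59 nuclei of 1 library these correlations describe these nuclei alone.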

How the data were processed

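Raw UMI counts per gene and nucleus were deposited by the authors as 10x matrices with feature and barcode lists, 1 library for each injection site. The submitters' processing notes name Cell Ranger, and the matrix header gives version 3.1.0. The same notes name human builds only, no mouse build is given for these libraries in the sources used here, and coordinates and lengths come from GENCODE M21 (GRCm38), which holds 30934 of the 31053 Ensembl identifiers. For the AON library the design comes from the labels alone.

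UMIs were summed over the nuclei of a class and scaled to CPM. Log2 ratios had 0.5 UMI added to each sum, and a gene was compared with 20 or more UMIs over both sums. Poisson, Clopper-Pearson and conditional binomial intervals (95%, scipy 1.17.1, numpy 2.4.6, Python 3.11.15) cover counting error only. A fold against 0 used a floor of 3 UMIs. The ratio code was tested on simulated data. Shares of nuclei with a UMI were also taken after thinning each nucleus to 3000 UMIs. No doublet caller was run. All 10 members are named, with partner genes past 2-fold and the 3 most similar genes of each member with 100 or more UMIs, some of which are not reported here. The members, gene lists and limits were chosen with earlier results of these data known. Alternatives changed the gene minimum, class rule, UMIs added, weights, depth, UMI minimum, scaling and Ebf1 and Cntn6 limit.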

Additional observations from a re-analysis of the deposited data

Results flagged for a closer look

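The AON barcodes under the minimum of 1000 genes, which no comparison used, also held UMIs of these genes. In 86 such barcodes with a median of 775 UMIs, 186 UMIs of the 10 members were found in 47 barcodes, 1965 CPM (exact Poisson interval 1693 to 2268) against 4950 CPM above the minimum. Adgrl3 (61 UMIs), Tenm4 (49 UMIs) and Tenm3 (27 UMIs) made up most of them, and Adgrl2 had 0. The 11 pPCx barcodes under the minimum had 14 UMIs of the members.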

How the results depend on the processing

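No paired analysis was possible because there is a single library per injection site. Counts of members past 2-fold stayed within 1.5 times the value given above in 49 of 52 alternatives. Thinned to 3000 UMIs, 1 member (Tenm3) was higher in AON projection neurons in place of 0, and 1 (Tenm2) in place of 3 in pPCx projection neurons. The cause was not tested. The minimum of 20 UMIs also held after thinning, when Adgrl2 and Flrt2 had a UMI in few nuclei. Against pPCx nuclei low in Ebf1 and Cntn6, 1 member (Tenm3) was higher in pPCx projection neurons in place of 3, and the log2 ratios of Tenm2 and Flrt2 reversed to 0.32 and 3.15, the latter on fewer UMIs than the minimum of 20. Without a gene minimum the GABAergic share of the AON library was 27.1% in place of 46.1%, and the projection neuron share of the pPCx library 82.4% in place of 93.7%. Of 251 log2 ratios of single members under an alternative, 207 stayed within the counting interval, 42 left it, among them Tenm3 between libraries, which changed sign, and 2 are the reversals above. The share of nuclei with a UMI was higher without thinning in 28 of 30 cases. The following were chosen after the data had been seen: the division of the remaining nuclei by astrocyte and oligodendrocyte markers, 5 or more projection neuron marker UMIs, the low pPCx nuclei alone, leaving out the nucleus with the most UMIs of a gene, and, for the Ebf1 and Cntn6 groups, leaving out deep nuclei and weighting nuclei equally. Depth limits Adgrl2, Flrt1 and Flrt2 most, which had 2, 32 and 14 UMIs in AON projection neurons.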
